A study of Homo sapiens with 24 samples.

Results

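The proteasome is encoded by genes whose symbols begin with PSM, and these genes were followed in 2 acute myeloid leukaemia cell lines exposed to 2 modified adenosines. A gene was kept if its symbol began with PSMA, PSMB, PSMC, PSMD, PSME, PSMF or PSMG followed by a number, without a hyphen and without a final P. The rule returned 48 of the 23354 genes of the count table. It left out 6 other PSM rows, of which 5 were antisense genes and 1 was PSMC3IP, a recombination factor.

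RNA sequencing was performed on MV4-11 and KG-1a, both established human lines kept in Iscove's medium with serum. Each line was left untreated or was given 1 µM of 8-chloro-adenosine (8CA) or 1 µM of 8-amino-adenosine (8AA), and RNA was taken at 8 h and at 24 h. The drugs are adenosine analogs that differ at position 8 of the base, which carries a chloro group in 8CA and an amino group in 8AA. Each of the 12 groups held 2 libraries, A and B, which makes 24 libraries. The time of the untreated libraries is given only by their titles, and the labels do not say that A and B came from separate cultures, so the p-values measure only the spread between these samples.

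Proteasomes degrade proteins that carry ubiquitin chains. The barrel-shaped core particle has outer rings of alpha subunits and inner rings of beta subunits, and 3 of the beta subunits (PSMB5, PSMB6 and PSMB7) cut peptide bonds. A regulatory particle caps the core: its base holds the ATPases PSMC1 to PSMC6, which unfold the substrate, and its lid holds PSMD14, which removes the ubiquitin. In blood cells and after interferon, PSMB8, PSMB9 and PSMB10 can take the places of PSMB5, PSMB6 and PSMB7 to form the immunoproteasome, which is known for supplying peptides to MHC class I. Other members help the particles assemble (PSMG1 to PSMG4, PSMD5, PSMD9 and PSMD10), open the core in place of the regulatory particle (PSME1 to PSME4) or bind the core as an inhibitor (PSMF1).

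The libraries held 18633963 to 24520078 counts, of which proteasome genes took 0.449% to 0.663%, and the median count of a proteasome gene in a library was 2438. The lines matched their labels by their defining markers. CD34, a stem and progenitor cell surface protein, lay between 325 and 629 CPM (counts scaled by library size) in KG-1a and at no more than 0.175 in MV4-11, and the receptor kinase FLT3 lay between 426 and 621 CPM in MV4-11 and between 0.159 and 1.32 in KG-1a. HOXA9, listed as a marker of MV4-11, was higher in KG-1a (22.3 to 27.8 CPM) than in MV4-11 (7.11 to 9.40 CPM). The epithelial markers EPCAM and KRT19 were at 0 in all 24 libraries. Replicates of a group differed by a chi-square of 1.43 to 5.20 per degree of freedom, except KG-1a under 8AA at 24 h, where it was 12.3, so counts of calls that rest on that pair are also given without 1 of its libraries. Testing left out PSMB11 in both lines and PSMA8 in KG-1a: PSMB11, the thymus-specific beta subunit, had 1 count in all libraries together, and PSMA8, the testis-specific alpha subunit, had 256 to 339 counts in each MV4-11 library and 0 in each of the 12 KG-1a libraries. That left 47 members tested in MV4-11 and 46 in KG-1a.

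Short stretches of promoter are shown because they carry letter patterns that the known regulators of these genes read. NFE2L1 and NFE2L2 are transcription factors that bind antioxidant response elements, whose core letters are TGACNNNGC, and interferon-regulated factors bind elements that repeat the letters GAAANNGAA. Of the 48 members, 42 had a RefSeq promoter (GRCh38.p14), and the 250 bases before the start were searched on both strands. The first 3 stretches hold the antioxidant core and the last 2 hold the interferon pattern, in capitals, each written on the strand of its gene. All 29 bases of each of the last 2 also lie within an annotated exon (GENCODE) of a gene whose symbol begins with PSM, and none of the first 3 does.
PSMB3 (chr17:38752627-38752655, plus strand): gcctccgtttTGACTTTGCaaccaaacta
PSMD3 (chr17:39980760-39980788, plus strand): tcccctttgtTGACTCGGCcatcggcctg
PSMD12 (chr17:67366724-67366752, minus strand): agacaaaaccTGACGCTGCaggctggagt
PSMB10 (chr16:67936853-67936881, minus strand): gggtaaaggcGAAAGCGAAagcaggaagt
PSME2 (chr14:24146620-24146648, minus strand): cctggggagtGAAAGCGAAagcccgggcg

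The antioxidant core was present in 11 of the 42 proteasome promoters (26.2%) and in 11.0% of all 27305 promoters. Members called lower in each of the 4 comparisons at 24 h, which share untreated cells within a line, held it in 5 of 26 promoters (19.2%) and the other members in 6 of 16 (37.5%), although the 3 stretches shown come from members that fell. The interferon pattern was present in 5 of them (11.9%) and in 7.06% of all promoters, and its 5 members were PSMA4, PSMB4, PSMB10, PSMG4 and PSME2. The CCAAT box was found in 18 proteasome promoters (42.9%, against 33.0% of all) and the letters TTCNNNGAA, a STAT element, in 5 (11.9%, against 6.78%). A match describes letters only and is not a bound site.

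At 24 h, most proteasome genes were lower in treated than in untreated cells, in both lines and with both drugs. In MV4-11, 37 of 47 members fell under 8CA and 1 rose, and 33 fell under 8AA and 1 rose. In KG-1a, 33 of 46 fell with either drug and none rose. The changes were of moderate size: the median log2 fold change of the members was -0.34 and -0.26 in MV4-11 and -0.31 and -0.33 in KG-1a (8CA first), where the median over all genes lay between 0.00 and 0.01. Calls were made with edgeR's quasi-likelihood test at an adjusted p under 0.05 (Benjamini-Hochberg over all genes tested).

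The transcriptome as a whole moved far less to 1 side, but the scaling between libraries itself centres most genes near no change. The falls of the members are therefore relative to the other genes of a library. Under 8CA in MV4-11 22.7% of all genes tested were called lower and 21.2% higher, and under 8AA the shares were 15.3% and 13.9%. In KG-1a they were 24.0% and 23.4% under 8CA and 26.6% and 25.4% under 8AA. Beside the 0 members called higher in KG-1a, 1 was higher at an unadjusted p under 0.05 with each drug, and DESeq2 called 33 lower and 0 higher with each. Without scaling beyond library size, the split under 8AA in KG-1a changed from 33 lower and 0 higher to 29 lower and 4 higher. It was 38 and 0 without replicate A of 8AA and 31 and 1 without replicate B. Standard errors had medians of 0.050 to 0.059 log2 units in these 4 comparisons, and reached 0.171 to 0.234 for PSMA6. In bulk RNA, fewer cells of a type and less RNA per cell cannot be told apart.

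**Figure D1:**
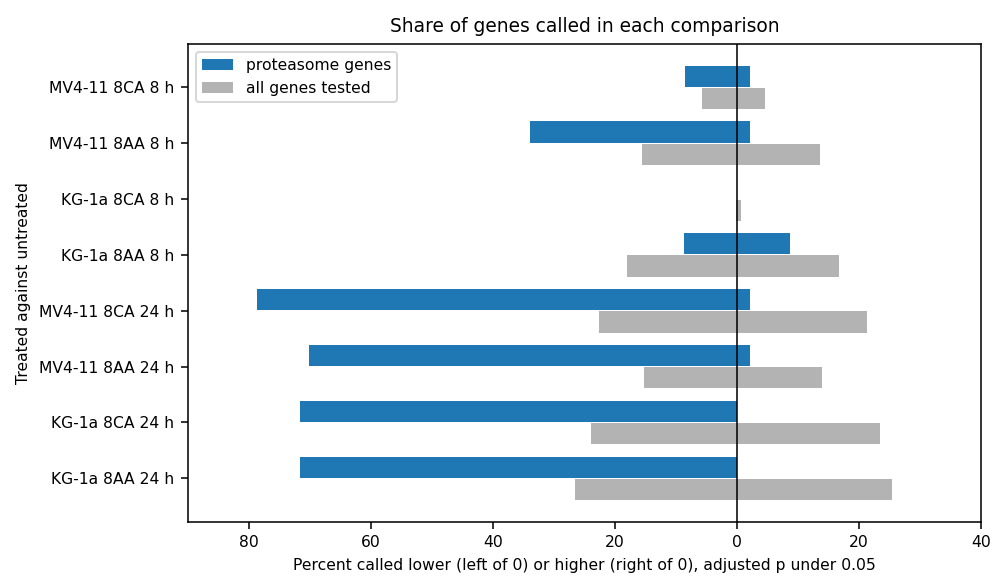
Horizontal bars give the percent of proteasome genes (blue) and of all genes tested (grey) called lower (left of 0) or higher (right of 0) than untreated cells at an adjusted p under 0.05, for each line, drug and time. In the 4 comparisons at 24 h, 70.2% to 78.7% of proteasome genes were called lower, against 15.3% to 26.6% of all genes.

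The lines share no library, so a member lower in both lines was called from separate samples. Under 8CA at 24 h, 32 of the 46 members tested in both lines were lower in both, as were 15.7% of the 11485 genes so tested. Under 8AA at 24 h it was again 32 of 46, against 10.9% of all genes, and it was 33 without KG-1a 8AA replicate A and 30 without replicate B. No member was higher in both lines at 24 h with either drug, whereas 13.1% of all genes were under 8CA and 7.23% under 8AA.

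The lid genes within the naming rule fell together. All 8 were called lower in each comparison at 24 h, with median log2 fold changes of -0.42 (8CA) and -0.37 (8AA) in MV4-11 and -0.33 and -0.45 in KG-1a. The lid subunit SEM1 lies outside the rule and is given below. PSMD11, a lid scaffold, measured 153 and 148 CPM in untreated MV4-11 at 24 h (A and B), 92.9 and 93.8 under 8CA and 112 and 109 under 8AA. In KG-1a, PSMD11 was at 199 CPM in both untreated libraries, at 124 and 122 under 8CA and at 121 and 118 under 8AA. Treated and untreated libraries did not overlap, and PSMD11 fell by 0.69 and 0.44 in MV4-11 and by 0.70 and 0.73 in KG-1a on the log2 scale (adjusted p = 1.3e-08, 4.2e-06, 6.7e-09 and 2.8e-09). The deubiquitinase PSMD14 fell less, by 0.35 and 0.34 in MV4-11 and by 0.27 and 0.43 in KG-1a.

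The remaining lid genes, in the order MV4-11 under 8CA, MV4-11 under 8AA, KG-1a under 8CA and KG-1a under 8AA, were close to these values. PSMD3 had log2 fold changes of -0.48, -0.39, -0.44 and -0.61, PSMD7 of -0.45, -0.39, -0.41 and -0.58 and PSMD13 of -0.46, -0.36, -0.37 and -0.42. PSMD6 (-0.34, -0.27, -0.21 and -0.19), PSMD8 (-0.38, -0.25, -0.29 and -0.45) and PSMD12 (-0.34, -0.38, -0.19 and -0.46) fell less than those under 8CA in both lines.

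In the base, PSMD1 had a lower log2 fold change than any of the 6 ATPases in each comparison at 24 h, a difference that was not tested. PSMD1, a large scaffold of the base, measured 157 and 154 CPM in untreated MV4-11 at 24 h, 96.7 and 94.5 under 8CA and 106 and 107 under 8AA. In KG-1a, PSMD1 was at 254 and 251 CPM untreated, at 133 and 127 under 8CA and at 160.1 and 152 under 8AA. These were the lowest PSMD1 levels of each line, and the log2 fold change under 8CA in KG-1a, -0.96 ± 0.045 (SE, adjusted p = 3.1e-10), was the largest fall of any member tested. PSMD1 fell by 0.70 and 0.55 in MV4-11 and by 0.70 under 8AA in KG-1a. PSMD2, the other scaffold and a docking site for ubiquitin shuttles, fell from 354 and 343 CPM to 218 and 224 under 8CA in MV4-11 and from 405 and 413 CPM to 245 and 248 in KG-1a, log2 fold changes of -0.66 and -0.73. Under 8AA its log2 fold changes were -0.41 and -0.43.

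All 6 ATPases were called lower in MV4-11 with each drug and 5 of 6 in KG-1a with each, and their log2 fold changes lay between -0.51 and -0.10. PSMC3 led them, at -0.51, -0.38, -0.36 and -0.44 in the order above, and PSMC1 (-0.39, -0.35, -0.35 and -0.36), PSMC2 (-0.30, -0.28, -0.35 and -0.28) and PSMC4 (-0.34, -0.25, -0.34 and -0.35) were also called in each. PSMC6 was not called under 8CA in KG-1a (-0.10) and PSMC5 was not called under 8AA there (-0.14). PSMD4, a ubiquitin receptor of the base, was not called in any comparison with untreated cells: its log2 fold changes at 24 h were -0.04 and -0.08 in MV4-11 and 0.06 and -0.05 in KG-1a. It stood at 136 and 134 CPM in untreated MV4-11 and at 131 and 132 CPM under 8CA, and in KG-1a at 114 and 111 CPM untreated and at 121 and 114 under 8CA.

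In the core, every constitutive beta gene was called lower in each comparison at 24 h (7 of 7), with medians of -0.41 and -0.27 in MV4-11 and -0.49 and -0.33 in KG-1a. PSMB5, the chymotrypsin-like subunit and the main target of proteasome inhibitor drugs, measured 84.3 and 85.7 CPM in untreated MV4-11, 63.3 and 65.5 under 8CA and 71.6 and 69.8 under 8AA. In KG-1a, PSMB5 was at 100.0 and 106 CPM untreated, at 66.4 and 64.2 under 8CA and at 67.1 and 61.1 under 8AA. The groups did not overlap, and the log2 fold changes were -0.40 ± 0.064 and -0.27 ± 0.064 in MV4-11 and -0.66 ± 0.058 and -0.69 ± 0.058 in KG-1a (SE).

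The other catalytic subunits moved the same way. PSMB6, the caspase-like subunit, was at 73.0 and 76.5 CPM in untreated MV4-11, 51.0 and 55.1 under 8CA and 61.8 and 63.5 under 8AA. In KG-1a, where it was lower throughout, PSMB6 was at 34.0 and 36.4 CPM untreated, 26.6 and 23.6 under 8CA and 29.8 and 26.1 under 8AA. Its log2 fold changes were -0.50 and -0.26 in MV4-11 and -0.49 and -0.33 in KG-1a. PSMB7, the trypsin-like subunit, was at 125 and 122 CPM in untreated MV4-11, 103 and 105 under 8CA and 99.9 and 103 under 8AA. In KG-1a, PSMB7 was at 113 and 115 CPM untreated, 95.1 and 91.6 under 8CA and 98.3 and 79.6 under 8AA, the pair with the widest gap between replicates. PSMB7 fell by 0.24 and 0.28 in MV4-11 and by 0.29 and 0.36 in KG-1a.

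The structural beta subunits, which do not cut, were called lower with them. In the same order of groups, PSMB2 had log2 fold changes of -0.56, -0.35, -0.51 and -0.41, the largest of this kind under 8AA in both lines. PSMB1 had -0.43, -0.32, -0.31 and -0.33, PSMB3 had -0.41, -0.22, -0.51 and -0.26, and PSMB4 had the smallest, -0.20, -0.22, -0.24 and -0.21.

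The alpha ring, whose subunits gate entry to the core, showed 6 of 8 genes called lower in MV4-11 with each drug, 7 of 7 in KG-1a under 8CA and 6 of 7 under 8AA. PSMA3 changed on the log2 scale by -0.50 and -0.34 in MV4-11 and -0.58 and -0.62 in KG-1a, and PSMA7 by -0.55 and -0.34 in MV4-11 and -0.44 and -0.38 in KG-1a. PSMA4 gave -0.37, -0.31, -0.47 and -0.27 in the order of groups above, PSMA2 -0.34, -0.22, -0.36 and -0.35, PSMA5 -0.26, -0.29, -0.21 and -0.35, and PSMA1 -0.26, -0.24, -0.32 and -0.31. PSMA6 was counted at only 2.19 to 8.15 CPM, and its fall under 8CA in KG-1a, -0.80 ± 0.234 (SE, adjusted p = 0.011), came from 4.79 and 4.13 CPM untreated against 2.94 and 2.19 treated. The call was lost in 2 of 12 alternative analyses, where the adjusted p reached 0.10. In the table's own coordinates PSMA6 lies wholly within KIAA0391 on the same strand, and PSMA2 within C7orf25, so their counts are uncertain.

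**Figure D2:**
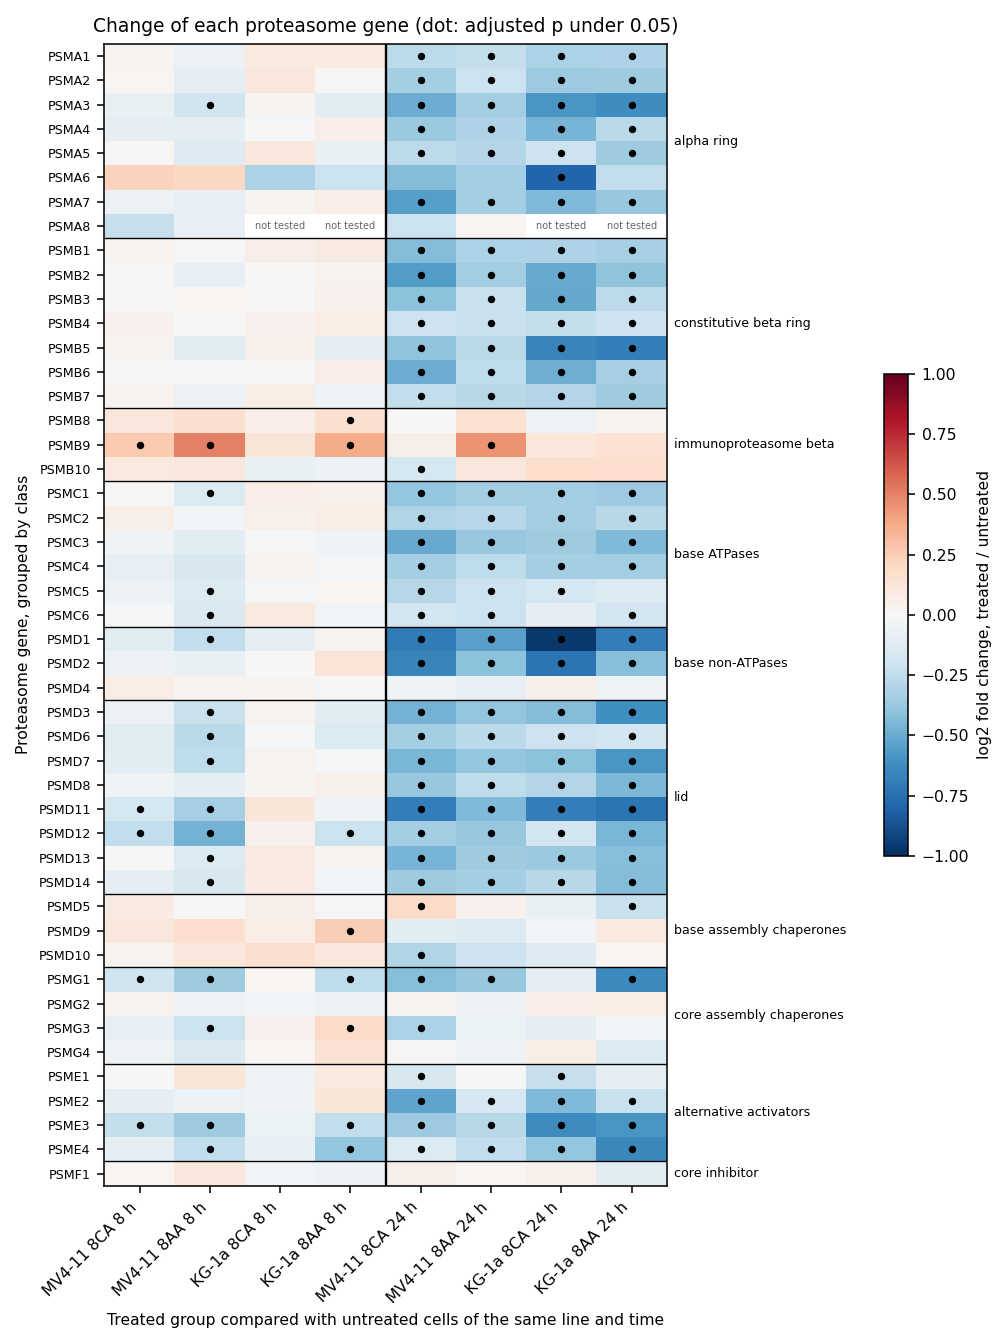
Log2 fold change (colour, treated over untreated of the same line and time) of each of the 47 members tested, in rows grouped by class and in 8 columns with the 8 h comparisons left of the black line; a dot marks an adjusted p under 0.05. Blue fills most of the core, base and lid rows at 24 h, and the 4 dots of PSMB9 mark higher values. The rows of PSMA6, PSMA8, PSMB8, PSMB10, PSMD4, PSMD9, PSMD10, PSMG2, PSMG4 and PSMF1 hold 1 dot or none.

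Of the 7 assembly factor genes, 3 were called lower and 1 higher under 8CA in MV4-11 at 24 h, 1 lower under 8AA there, none under 8CA in KG-1a and 2 lower under 8AA in KG-1a. Of the base chaperones, PSMD5 rose under 8CA in MV4-11, from 57.9 and 58.4 CPM to 67.9 and 64.9 (log2 fold change 0.19 ± 0.053 SE, adjusted p = 0.0082), and fell under 8AA in KG-1a, from 105 and 104 CPM to 90.2 and 88.8 (-0.22). PSMD9 was not called at 24 h, where its log2 values were -0.11 and -0.14 in MV4-11 and -0.03 and 0.10 in KG-1a. PSMD10, also known as gankyrin, was called in 1 comparison, under 8CA in MV4-11 (-0.30).

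Of the core chaperones, PSMG1 fell in 3 of the 4 comparisons at 24 h. It was at 81.1 and 82.4 CPM in untreated MV4-11, 61.9 and 59.6 under 8CA and 62.5 and 63.2 under 8AA. In KG-1a it was at 97.2 and 93.4 CPM untreated, 90.9 and 88.0 under 8CA and 61.7 and 61.0 under 8AA. Its log2 fold change was -0.43 and -0.38 in MV4-11 and -0.64 under 8AA in KG-1a, and the -0.09 under 8CA in KG-1a was not called. PSMG3 was called in 1 comparison, under 8CA in MV4-11 (-0.31). PSMG2, the partner of PSMG1 in alpha-ring assembly, lay between -0.06 and 0.07 in all 4 and was not called.

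The activators fell in most comparisons. PSME3, the nuclear activator, changed on the log2 scale by -0.36 and -0.28 in MV4-11 and -0.63 and -0.59 in KG-1a. PSME4, an activator linked to histone turnover, was at 184 and 187 CPM in untreated KG-1a, 144 and 139.7 under 8CA and 115 and 123 under 8AA, falls of 0.39 and 0.64 on the log2 scale. In MV4-11 PSME4 fell by 0.13 and 0.24, and the call under 8CA (adjusted p = 0.038) was lost in 9 of 12 alternatives. The core inhibitor PSMF1 was not called in any comparison with untreated cells, and its log2 fold changes at 24 h ran from -0.11 to 0.06.

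**Figure D3:**
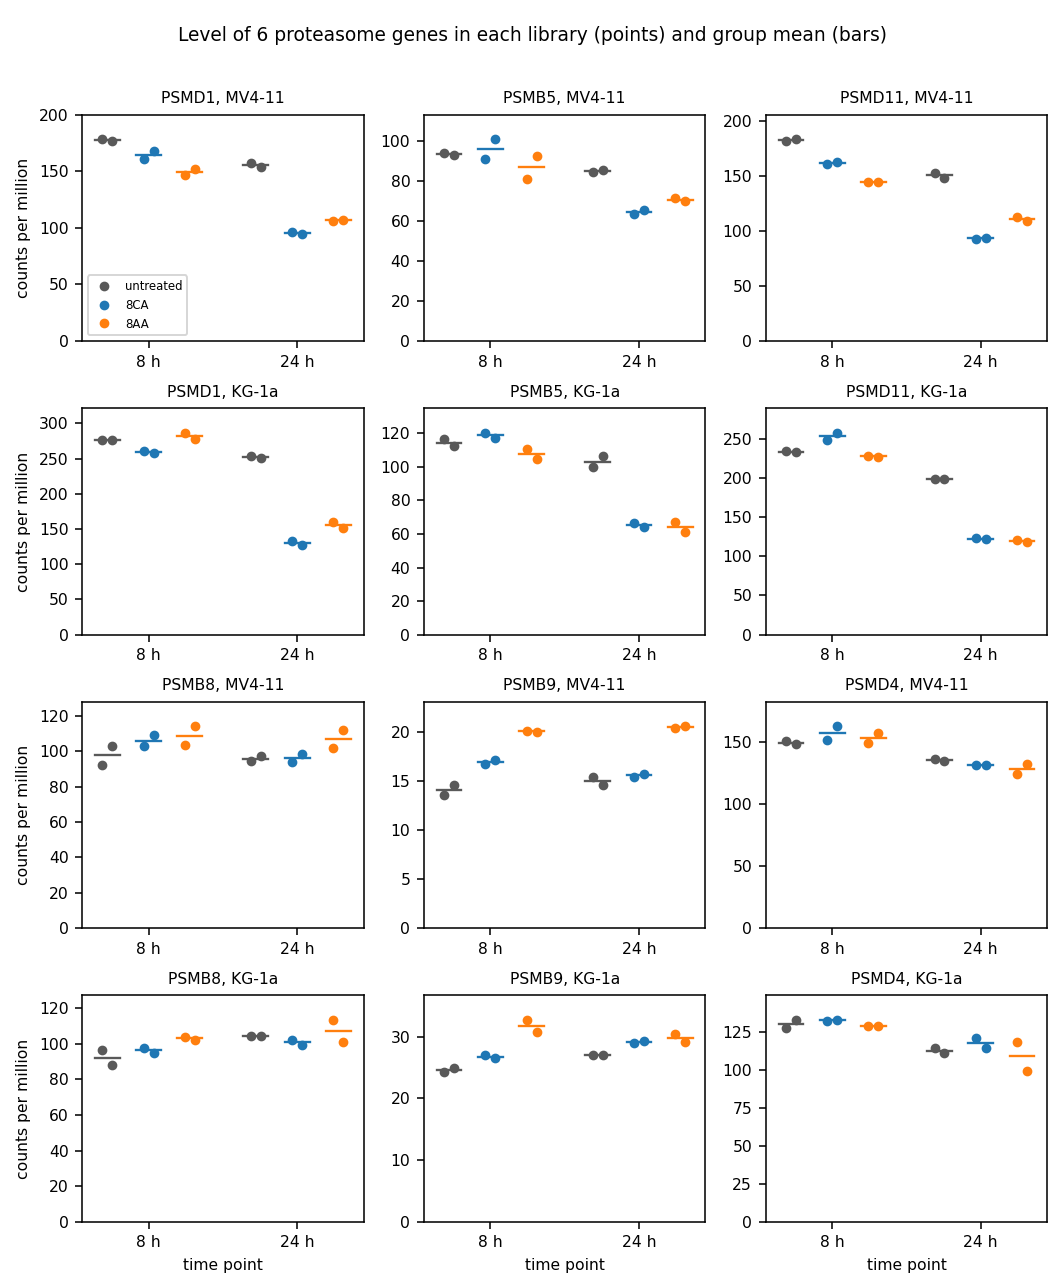
Level in CPM (y axes from 0) of 6 proteasome genes in each library (points; bars are the mean of 2) for untreated, 8CA and 8AA cells at 8 h and 24 h, with MV4-11 above KG-1a for each gene. PSMD1, PSMB5 and PSMD11 were lower in every treated library than in every untreated library at 24 h, while the PSMD4 and PSMB8 points lay close to their untreated levels and PSMB9 was higher under 8AA.

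Of PSMB8, PSMB9 and PSMB10, which take the places of PSMB5, PSMB6 and PSMB7 in the immunoproteasome, there was 1 lower call and 1 higher call over the 4 comparisons at 24 h, and their median log2 fold changes were 0.01 and 0.16 in MV4-11 and 0.11 and 0.15 in KG-1a. PSMB9 under 8AA was the only member called higher in both lines in any comparison with untreated cells, at 8 h, where 5.29% of all genes tested in both lines were so called.

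PSMB8, which lies with PSMB9 on chromosome 6, was nearly level throughout. In MV4-11 at 8 h it was at 92.4 and 103 CPM untreated, 103 and 109 under 8CA and 103 and 114 under 8AA, and at 24 h at 94.4 and 97.2 untreated, 93.7 and 98.5 under 8CA and 102 and 112 under 8AA. In KG-1a at 8 h it was at 96.3 and 87.9 CPM untreated, 97.7 and 94.96 under 8CA and 104 and 102 under 8AA, and at 24 h at 104 in both untreated libraries, 102 and 99.3 under 8CA and 113 and 101 under 8AA. The one call for PSMB8 was 8AA at 8 h in KG-1a (log2 fold change 0.16, adjusted p = 0.046), which was lost in 6 of 12 alternatives.

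PSMB9 was the member that rose most. In MV4-11 at 8 h it was at 13.6 and 14.5 CPM untreated, 16.7 and 17.1 under 8CA and 20.04 and 19.97 under 8AA, and at 24 h at 15.4 and 14.5 untreated, 15.4 and 15.7 under 8CA and 20.4 and 20.5 under 8AA. In KG-1a at 8 h it was at 24.3 and 24.9 CPM untreated, 27.0 and 26.6 under 8CA and 32.8 and 30.9 under 8AA, and at 24 h at 27.0 in both untreated libraries, 28.98 and 29.2 under 8CA and 30.5 and 29.2 under 8AA. Under 8AA the treated and untreated libraries did not overlap at either time. PSMB9 rose under 8AA by 0.51 ± 0.078 at 8 h and 0.45 ± 0.077 at 24 h in MV4-11 and by 0.37 ± 0.065 at 8 h in KG-1a (log2, SE; adjusted p = 0.00018, 0.00042 and 0.00046), and the 0.15 ± 0.065 at 24 h in KG-1a was not called (adjusted p = 0.072). Under 8CA, PSMB9 was called at 8 h in MV4-11 (0.26, adjusted p = 0.047), a call lost in 7 of 12 alternatives.

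PSMB10 differed mainly between lines. In the table's own coordinates it shares 18.7% of its span with CTRL on the same strand, so part of its count is uncertain. In MV4-11 at 8 h it was at 89.6 and 96.2 CPM untreated, 94.3 and 105 under 8CA and 96.6 and 105 under 8AA, and at 24 h at 86.0 and 87.2 untreated, 71.8 and 81.5 under 8CA and 91.5 and 95.5 under 8AA. In KG-1a at 8 h it was at 20.7 and 23.0 CPM untreated, 21.7 and 19.9 under 8CA and 21.3 and 20.7 under 8AA, and at 24 h at 18.9 and 19.6 untreated, 21.5 and 22 under 8CA and 21.5 and 21.6 under 8AA. The called value was 8CA at 24 h in MV4-11 (log2 fold change -0.18, adjusted p = 0.047), which was lost in 8 of 12 alternatives.

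PSME1 and PSME2 encode the interferon-inducible activator that is often paired with the immunoproteasome. PSME1 in MV4-11 was at 142 and 143 CPM untreated, 139 and 145 under 8CA and 148 and 161 under 8AA at 8 h, and at 136 and 139.6 untreated, 121 and 126 under 8CA and 131 and 144 under 8AA at 24 h. In KG-1a it was at 115 and 111 CPM untreated, 108 and 109.6 under 8CA and 125 and 117 under 8AA at 8 h, and at 111 and 113 untreated, 94.4 and 96.3 under 8CA and 113 and 95.9 under 8AA at 24 h. Under 8CA at 24 h PSME1 fell by 0.16 in MV4-11 (adjusted p = 0.028, lost in 6 of 12 alternatives) and by 0.23 in KG-1a, and under 8AA it was not called.

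PSME2 fell at 24 h with both drugs. In MV4-11 it was at 153 and 155 CPM untreated, 144 and 147 under 8CA and 148 in both libraries under 8AA at 8 h, and at 142 and 141 untreated, 99.5 and 96.9 under 8CA and 125 and 127 under 8AA at 24 h. In KG-1a it was at 85.1 and 88.7 CPM untreated, 85.8 and 83.5 under 8CA and 95.05 and 93.6 under 8AA at 8 h, and at 85.1 and 91.2 untreated, 63.8 and 66.2 under 8CA and 80.7 and 70.1 under 8AA at 24 h. Its log2 fold changes at 24 h were -0.53 and -0.17 in MV4-11 and -0.44 and -0.22 in KG-1a, the last lost in 4 of 13 alternatives. The interferon pattern in its promoter (above) was also found in those of PSMA4, PSMB4, PSMB10 and PSMG4.

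The share of each immunoproteasome subunit in its pair (counts per exon length, as a percent of the pair) was higher in most treated libraries at 24 h. A share also rises when the constitutive subunit falls. PSMB5, PSMB6 and PSMB7 were called lower in each comparison at 24 h. Of the immunoproteasome subunits, only PSMB9 under 8AA in MV4-11 was called higher then. For PSMB8 and PSMB5 the PSMB8 share in KG-1a was 36.6% ± 1.02 untreated, 46.8% ± 0.138 under 8CA and 48.8% ± 0.388 under 8AA (SD, n = 2), and in MV4-11 it was 39.1% ± 0.223, 46.0% ± 0.265 and 46.2% ± 2.15. The PSMB9 share of its pair in MV4-11 was 9.47% ± 0.611 untreated, 13.3% ± 0.459 under 8CA and 14.6% ± 0.158 under 8AA, and in KG-1a it was 28.6% ± 1.01, 37.8% ± 2.15 and 35.9% ± 1.5. The PSMB10 share in KG-1a was 5.84% ± 0.0876 untreated, 7.89% ± 0.320 under 8CA and 8.26% ± 1.13 under 8AA, and in MV4-11 it was 20.6% ± 0.442, 21.3% ± 1.38 and 25.3% ± 0.165. The height of a share depends on the exon lengths used, which were 4.776 kb for PSMB10 and 1.756 kb for PSMB7. Treated libraries lay above untreated ones in each pair and line at 24 h except PSMB10 under 8CA in MV4-11, and no test was run on these shares.

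**Figure D4:**
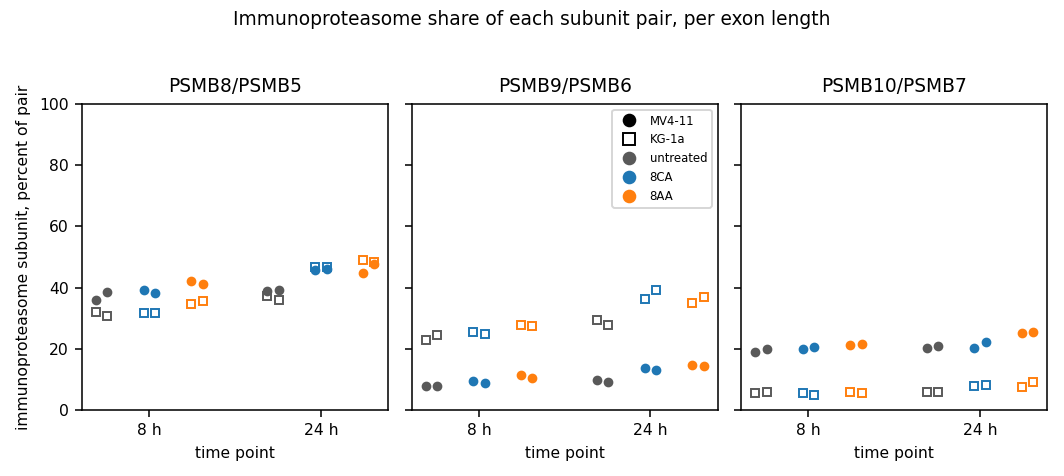
Share of the immunoproteasome subunit in each of 3 subunit pairs (percent of the pair, counts per exon length, y axis 0 to 100) in each library, by time point, with filled circles for MV4-11, open squares for KG-1a and colours for treatment. The PSMB8 share reached 46.0% to 48.8% in the 4 treated group means at 24 h, from 36.6% and 39.1% untreated, and the lines stood apart for PSMB9 and PSMB10. At 24 h PSMB5 was called lower in each comparison and PSMB8 was not called.

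At 8 h the picture was different, and fewer members had moved. Under 8CA, 4 of 47 fell and 1 rose in MV4-11 (5.77% and 4.58% of all genes), and none of 46 was called in KG-1a (0.181% and 0.7% of all genes), where 0 were lower and 3 higher at an unadjusted p under 0.05 and DESeq2 called 0. Under 8AA, 16 fell and 1 rose in MV4-11 (15.6% and 13.6% of all genes), and 4 fell and 4 rose in KG-1a (18.0% and 16.7%). The split depended on scaling: for 8AA in MV4-11 it was 11 lower and 5 higher with library size only or upper-quartile scaling, in KG-1a it was 5 and 2 with DESeq2's size factors and 4 and 7 with library size only, and for 8CA in MV4-11 it was 4 and 0 with DESeq2's size factors. In MV4-11 8CA gave 1 call without untreated replicate A or 8CA replicate B and 3 without either of the others, and 8AA gave 11 without untreated replicate A. In KG-1a 8AA gave 4 calls without untreated replicate B and 5 without either treated library.

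Most of the early falls lay in the lid, the base, the assembly factors and the activators. Under 8AA at 8 h in MV4-11, 7 of 8 lid genes were called lower, against 0 of 7 constitutive beta genes and 1 of 8 alpha genes. The base genes called lower there were PSMC1 (-0.14), PSMC5 (-0.13), PSMC6 (-0.14) and PSMD1 (-0.25). PSMD12, a lid scaffold, was at 113 and 105 CPM in untreated MV4-11, 93.9 and 89.4 under 8CA and 82.8 and 74.1 under 8AA, and in KG-1a at 96.0 and 104 CPM untreated, 104 and 102 under 8CA and 84.2 and 88.0 under 8AA. It fell by 0.48 ± 0.058 under 8AA and 0.25 ± 0.058 under 8CA in MV4-11 (SE, adjusted p = 2.6e-05 and 0.013) and by 0.22 under 8AA in KG-1a (adjusted p = 0.0059). PSMG1 fell by 0.36 under 8AA and 0.20 under 8CA in MV4-11 and by 0.25 under 8AA in KG-1a, and PSME3 by 0.36 under 8AA in MV4-11, 0.24 under 8CA there and 0.25 under 8AA in KG-1a.

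PSME4 led the early falls in KG-1a. It was at 206 and 199 CPM untreated, 189 and 194 under 8CA and 153 and 155 under 8AA, a fall of 0.39 on the log2 scale under 8AA (adjusted p = 1.2e-05). The 4 members lower in both lines under 8AA at 8 h were PSMD12, PSME3, PSME4 and PSMG1, 8.70% of the 46 tested in both, against 9.16% of all genes. Besides PSMB9 and PSMB8, the members that rose under 8AA in KG-1a were PSMD9 (0.24, adjusted p = 0.012) and PSMG3 (0.19, adjusted p = 0.045, lost in 6 of 12 alternatives). Under 8CA at 8 h no member was called lower or higher in both lines (0.0958% and 0.253% of all genes), since none was called in KG-1a.

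The analogs were compared directly at the same dose and time in 4 pairs of groups, with p-values adjusted over all genes in each. In MV4-11 at 24 h, 12 of 47 members were higher under 8AA than under 8CA and 0 were lower (11.7% and 9.48% of all genes). At an unadjusted p under 0.05 it was 18 higher and 2 lower, and DESeq2 called 10 and 0. The largest differences were PSMB9 (8AA minus 8CA 0.40, 95% confidence interval 0.24 to 0.55), PSME2 (0.36, 0.27 to 0.45) and PSMB10 (0.29, 0.14 to 0.43), with adjusted p of 0.0016, 2.8e-05 and 0.0072. PSMD11 and PSMD2 each differed by 0.24. Leaving out 1 library at a time gave 4 to 11 calls, with 4 without 8CA replicate A and 4 without 8AA replicate B.

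In KG-1a at 24 h the members went both ways. Under 8AA, 9 of 46 were lower than under 8CA and 5 were higher (21.7% and 20.3% of all genes). PSMG1 was lower by 0.54 (interval -0.65 to -0.44, adjusted p = 3.5e-07) and PSMD12 by 0.27 (-0.39 to -0.15), while PSMD2 was higher by 0.30 (0.19 to 0.41) and PSMD1 by 0.27 (0.17 to 0.36). The balance rested on the uneven replicates of 8AA: without replicate A it was 16 lower and 4 higher, and without replicate B 4 lower and 14 higher. Without 8CA replicate A it was 4 and 4, and without 8CA replicate B 5 and 4. It was 3 lower and 12 higher with library size only and 3 lower and 6 higher with upper-quartile scaling.

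At 8 h the differences between the analogs were smaller. In MV4-11, 2 members were lower under 8AA and 0 higher (3.70% and 2.96% of all genes): PSMD12 (-0.23, interval -0.35 to -0.10) and PSMD11 (-0.16, -0.25 to -0.07). At an unadjusted p under 0.05, 17 were lower and 2 higher, DESeq2 called 1 and 0, and the split was 1 and 1 with library size only and 0 and 1 with upper-quartile scaling, while 1 setting given among the limits raised the count. In KG-1a, 6 were lower and 2 higher (15.8% and 14.7% of all genes), led by PSME4 (-0.31, -0.41 to -0.21), PSMG1 (-0.27, -0.37 to -0.17) and PSMD12 (-0.26, -0.37 to -0.14). That split was 7 and 1 with DESeq2's size factors, 6 and 6 with library size only and 6 and 5 with upper-quartile scaling. Without any 1 of the 4 libraries compared, 0 to 1 were called in MV4-11 and 4 to 5 in KG-1a.

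For the catalytic subunit PSMB5 no difference between the analogs was called. The differences, 8AA minus 8CA, were -0.14 (interval -0.28 to -0.01) at 8 h and 0.14 (-0.002 to 0.27) at 24 h in MV4-11, and -0.14 (-0.26 to -0.02) and -0.03 (-0.15 to 0.10) in KG-1a. For PSMB8 they were 0.04 (-0.10 to 0.18) and 0.15 (0.01 to 0.29) in MV4-11 and 0.10 (-0.03 to 0.22) and 0.09 (-0.03 to 0.22) in KG-1a, also without a call.

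**Figure D5:**
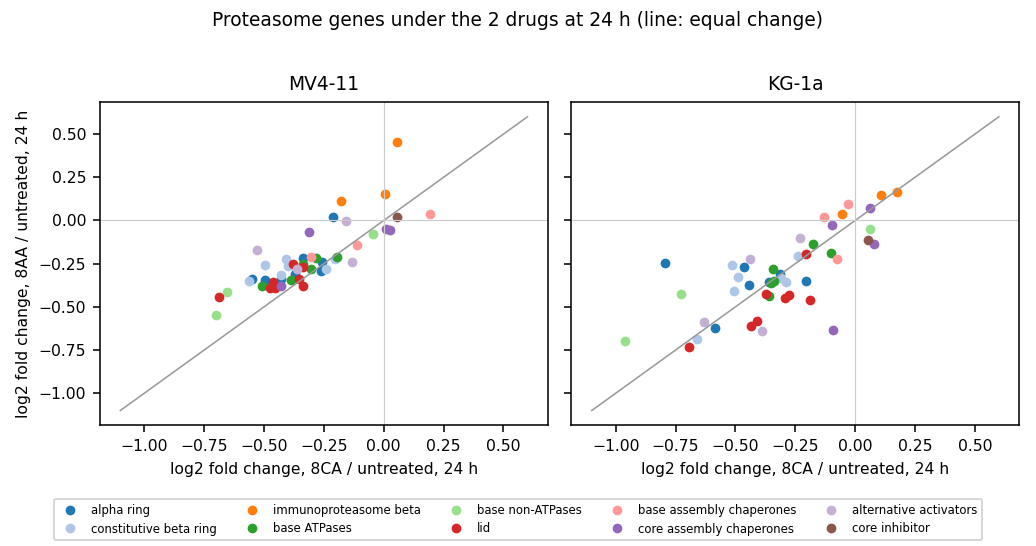
Log2 fold change against untreated cells at 24 h under 8CA (x axis) and under 8AA (y axis) for each proteasome gene, coloured by class, in MV4-11 (left) and KG-1a (right); both axes of a panel use the same untreated libraries, and the diagonal marks equal change. Most points lie below 0 on both axes, the immunoproteasome beta genes lie near or above 0, and in KG-1a PSMD1 (-0.96 and -0.70) and PSMG1 (-0.09 and -0.64) stand on opposite sides of the diagonal.

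The responses were also compared between lines, as the change in MV4-11 minus the change in KG-1a. Under 8CA at 8 h this interaction was called for 1 of 47 members, PSMD11 (-0.28, 1.15% of all genes called in either direction), and at 24 h for 6 (11.2% of all genes), 1 lower and 5 higher. At 24 h PSMG1 fell more in MV4-11 (-0.31). The changes of PSME3 (0.29), PSMD5 (0.29), PSMD1 (0.28), PSME4 (0.28) and PSMB5 (0.28, lost in 10 of 14 alternatives) were lower in KG-1a than in MV4-11. The split was 2 and 5 with library size only and 2 and 4 with upper-quartile scaling, and 3 were called without MV4-11 untreated replicate B.

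Under 8AA the interaction was called for 3 of 47 members at 8 h (11.1% of all genes) and 11 at 24 h (22.3%). At 8 h the changes of PSMG3 (-0.36), PSMD11 (-0.26) and PSMD1 (-0.24) were lower in MV4-11 than in KG-1a. At 24 h the 11 called had lower changes in KG-1a than in MV4-11, led by PSMB5 (0.44, interval 0.25 to 0.63), PSME4 (0.42, 0.28 to 0.56) and PSMB9 (0.33, 0.13 to 0.52). Without KG-1a 8AA replicate A there were 16 such members and 0 of the other sign, and without replicate B there were 5 and 4. It was 8 and 1 with library size only or upper-quartile scaling.

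The responses at 24 h and 8 h differed for many members in 3 of the 4 line and drug combinations. The change at 24 h was lower than that at 8 h, by the interaction of time and treatment, for 29 of 47 members under 8CA in MV4-11 (16.3% of all genes called in either direction), 6 under 8AA in MV4-11 (4.63%), 29 of 46 under 8CA in KG-1a (23.9%) and 31 under 8AA in KG-1a (18.3%), and no member was called in the other direction. For 8AA in KG-1a it was 38 without replicate A of 8AA at 24 h and 30 without replicate B. Under 8CA in KG-1a the difference of the log2 changes was -0.87 ± 0.063 for PSMD1, -0.81 ± 0.059 for PSMD11 and -0.73 ± 0.072 for PSMD2 (SE). For 8AA in MV4-11 the steps were smaller: PSMD2 -0.34, PSMB1 -0.30 and PSMD1 -0.30. Calls for it dropped to 2 without untreated replicate B of 8 h or either untreated library of 24 h, and to 3 without 8AA replicate B of 8 h or A of 24 h, and those of 8CA in MV4-11 dropped to 19 without 8CA replicate A of 24 h.

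Untreated cells of the 2 time points were also compared, after the values had been seen. Untreated MV4-11 had 13 of 47 members lower at 24 h than at 8 h and 0 higher (2.16% and 3.38% of all genes), with a median of -0.14 over the members, and untreated KG-1a had 8 of 46 lower and 0 higher (1.97% and 2.49%), with a median of -0.13. At an unadjusted p under 0.05 it was 31 lower and 0 higher in MV4-11 and 27 and 1 in KG-1a. PSMD11 (-0.28 and -0.23), PSMA3 (-0.22 and -0.21), PSMD3 (-0.20 and -0.25), PSMB3 (-0.20 and -0.25) and PSMD7 (-0.18 and -0.23) were called in both lines. Without a filter on low counts the calls were 22 in MV4-11 and 16 in KG-1a, and in KG-1a 16 in the fit of all 24 libraries. Leaving out any 1 of the 4 untreated libraries left 1 to 5 calls in MV4-11 and 0 to 3 in KG-1a. Each treated group above was compared with untreated cells of its own time.

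Untreated, the lines used different levels of some members. At 8 h, 26 of 47 members were higher in MV4-11 than in KG-1a and 11 lower (40.1% and 42.1% of all genes), and at 24 h it was 29 and 11 (41.0% and 41.0%), or 22 and 14 with library size only, which moved the median of all genes by -0.11. The largest measured difference was PSMB10, with log2 differences of 2.17 at 8 h and 2.27 at 24 h. Scaled over all 24 libraries, PSMB10 was at 88.5 and 89.6 CPM in MV4-11 and at 18.1 and 18.8 in KG-1a at 24 h. PSMB6 was also higher in MV4-11 (1.16 and 1.19), as were PSME2 (0.91 and 0.78) and the ATPase PSMC2 (0.84 and 0.85). PSMB9 (-0.72 and -0.75), PSMD5 (-0.85 and -0.75) and PSMD1 (-0.55 and -0.60) were higher in KG-1a. PSMA8, read only in MV4-11, was at least 70.1-fold higher there, taking 3 counts in a KG-1a library as the limit.

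Ratios within a library do not depend on scaling between libraries. The log2 ratio of PSMB9 to PSMB6 per exon length averaged -3.41 in the 4 untreated MV4-11 libraries and -1.51 in the 4 untreated KG-1a libraries, a difference of -1.91. That of PSMB10 to PSMB7 averaged -2.00 and -4.02, a difference of 2.02. Both had p = 0.0286 in a two-sided exact permutation test, the smallest that 4 against 4 allows, and 0.0429 after adjustment over 3 ratios. The test pools 8 h and 24 h libraries as if exchangeable. The PSMB9 to PSMB6 ratio differed between the times, at -3.57 and -3.26 in MV4-11 and -1.69 and -1.32 in KG-1a (8 h first). For PSMB8 to PSMB5 the difference was 0.26, exact permutation p = 0.0571, and it was not called. The lines were thus opposite for 2 of the pairs, with relatively more PSMB10 in MV4-11 and relatively more PSMB9 in KG-1a.

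Per exon length (RPKM), the members ranged widely in untreated cells, and the ranks depend on the exon lengths deposited with the counts. PSMB2, at 216 and 208 CPM in untreated MV4-11 at 24 h, has a length of 9.894 kb. That of PSMA2 is 5.227 kb and that of PSMA7, at 246 and 253 CPM, is 1.025 kb. PSMA7 was highest at 24 h in both lines, at 250.2 ± 4.2 in MV4-11 and 179.7 ± 1.4 in KG-1a (SD, n = 2). PSMA3, PSMB3, PSME2 and PSMB4 followed in MV4-11 (180.1, 179.7, 178 and 159 RPKM), where PSMA3 and PSMB3 did not differ beyond their spread, and PSMB3, PSMB4, PSMD2 and PSMA3 in KG-1a (159, 135, 131 and 126 RPKM). PSMA6 (6.39 and 4.04 RPKM in MV4-11 and KG-1a) and PSMA2 (6.85 and 5.84) lay far below the other alpha genes of the ring that both lines express. Both lie wholly within another gene on the same strand, and PSMA3 lies wholly within C14orf37 on the opposite strand. Of all 48 members, 21 have at least 1 named pseudogene in RefSeq, PSMC1 the most with 13, and reads shared with such copies are uncertain.

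Genes that work with the proteasome but fall outside the naming rule were read from lists, whose counts stand against the shares of all genes called at 24 h (15.3% to 26.6% lower and 13.9% to 25.4% higher). Of 11 partners of the particle, 6 were called lower and 1 higher under 8CA in MV4-11 at 24 h, 7 and 0 under 8AA, 6 and 3 under 8CA in KG-1a and 7 and 0 under 8AA there. POMP, the core maturation chaperone, fell by 0.55 and 0.47 in MV4-11 and by 0.45 and 0.40 in KG-1a. The lid subunit SEM1 fell by 0.54 under 8CA in KG-1a and the ligase UBE3C by 0.54 under 8AA in KG-1a.

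Ubiquitin extraction and delivery factors also fell at 24 h: 7 and 6 of 9 in MV4-11 and 5 and 5 of 9 in KG-1a, with 1 gene, UFD1, higher under 8AA in KG-1a (0.71). VCP, the segregase that pulls ubiquitinated proteins from complexes, changed on the log2 scale by -0.50 and -0.30 in MV4-11 and -0.70 and -0.49 in KG-1a, and the shuttle RAD23B by -0.35 under 8AA in MV4-11. Of 6 ubiquitin and E1 genes, 2 and 0 fell in MV4-11 and 3 and 2 in KG-1a, among them UBA1, the ubiquitin-activating enzyme, by 0.45 under 8CA and 0.30 under 8AA in KG-1a, and UBB by 0.29 under 8CA in MV4-11. With 6 genes, nothing is read from how these counts stand to the shares of all genes.

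The transcription factor genes of the proteasome did not move as a group. NFE2L1, which raises proteasome genes when the particle is inhibited, was not called in any of the 8 comparisons with untreated cells, with log2 fold changes between -0.11 and 0.07. Of the 10 genes of its axis (9 tested in KG-1a), 3 were lower and 2 higher under 8CA in MV4-11 at 24 h, 1 and 0 under 8AA, 1 and 3 under 8CA in KG-1a and 3 and 2 under 8AA. MAFF, a small MAF partner, fell by 0.75 and 1.02 in MV4-11, MAFG rose by 0.45 under 8CA in KG-1a, and the protease DDI2, which activates NFE2L1, fell by 0.47 under 8AA in KG-1a.

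Of the interferon regulators, 10 of 11 were tested and IRF9 was listed at 0 in all libraries. At 24 h 0 were lower and 2 higher under 8CA in MV4-11, 0 and 3 under 8AA, 1 and 4 under 8CA in KG-1a and 1 and 3 under 8AA. The higher calls stand against 21.2%, 13.9%, 23.4% and 25.4% of all genes, so 2 of 10 under 8CA in MV4-11 and 3 of 10 under 8AA in KG-1a are near the background. STAT2, a transducer of type I interferon, rose by 0.42 and 0.48 in MV4-11 and by 0.28 and 0.73 in KG-1a, and at 8 h by 0.75 and 0.55 under 8AA in MV4-11 and KG-1a. IRF1 was not called in any comparison with untreated cells of its line, its log2 fold changes running from -0.15 to 0.19.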

How the data were processed

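RNA was sequenced from 24 libraries of 2 cell lines. Per the labels' processing notes, reads were handled with Trimmomatic, STAR 2.6.0, HTSeq 0.11.1 and edgeR. The authors deposited raw counts per gene, with exon lengths. The notes name hg19 and hg38 without a role. Of 21952 genes matched by symbol, 305 start within 10 bases of GRCh38.p14 in the table, so table coordinates were not printed. The strand setting of the counting is not given in the sources used here.

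Groups were taken from the labels. Genes were filtered with filterByExpr (minimum count 10), scaled by TMM and tested with edgeR 4.0.16 (R 4.3.3) by the quasi-likelihood method on the 12 libraries of a line, 1 coefficient per group. Comparisons between lines used all 24 libraries. P-values were adjusted over all 12800, 12711 or 14055 genes tested, at 0.05. The fits had a common biological coefficient of variation of 0.0422 (MV4-11) and 0.0418 (KG-1a). CPM and RPKM were computed from the counts with TMM library sizes, and ratios had 0.5 counts added. The CPM of members were scaled within each line. RPKM, the CPM of the cell markers and those of PSMB10 compared between untreated lines were scaled over all 24 libraries. The scripts were tested on simulated data. Alternatives were other scalings (DESeq2 1.42.0 size factors, library size only, upper quartile), no filter or 10 counts in every library, DESeq2's Wald test, a replicate block, the fit of all 24 libraries and leaving out each library. The members and lists were chosen with earlier results of these data known.

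Genes named in the text are the immunoproteasome genes, their constitutive counterparts, PSME1 and PSME2; the called members that changed most in each comparison; members called in the same direction across comparisons; and the called genes of each list with the largest change. From those lists, 1 gene is not reported here. PSMD4, PSMF1, PSMG2, PSMC5, PSMC6, PSMD9, PSMD10, PSMD14, NFE2L1 and IRF1 were named after their values were seen. Replicates A and B share only a letter between groups, with 2 pairs and correlations of deviations between -0.110 and 0.213.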

Additional observations from a re-analysis of the deposited data

Results flagged for a closer look

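The difference of a response between lines or between times, tested by an interaction term in edgeR's quasi-likelihood fit, drew attention to the members below, up to 3 per comparison. Values are log2 differences.

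For the change in MV4-11 minus the change in KG-1a, PSMD11 differed with 8CA at 8 h (-0.28). With 8CA at 24 h PSMG1 (-0.31), PSME3 (0.29) and PSMD5 (0.29) differed. With 8AA at 8 h it was PSMG3 (-0.36), PSMD11 (-0.26) and PSMD1 (-0.24), and with 8AA at 24 h PSMB5 (0.44), PSME4 (0.42) and PSMB9 (0.33).

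For the change at 24 h minus the change at 8 h, PSMD2 (-0.60), PSMD1 (-0.59) and PSMB2 (-0.57) differed with 8CA in MV4-11, and PSMD2 (-0.34), PSMB1 (-0.30) and PSMD1 (-0.30) with 8AA in MV4-11. In KG-1a, PSMD1 (-0.87), PSMD11 (-0.81) and PSMD2 (-0.73) differed with 8CA, and PSMD1 (-0.73), PSMD11 (-0.70) and PSMB5 (-0.60) with 8AA. Groups of 2 libraries were too small for a search for outlying libraries.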

How the results depend on the processing

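No called value changed sign in the alternatives run. At 24 h the members called against untreated cells numbered 32 to 39 with 8CA in MV4-11 (38 as reported), 30 to 36 with 8AA in MV4-11 (34), 30 to 34 with 8CA in KG-1a (33) and 31 to 38 with 8AA in KG-1a (33). Counts of calls that moved by over 1.5 times were these, and the cause was not tested. For 8AA minus 8CA in MV4-11 at 8 h (2 as reported) there were 1 with upper-quartile scaling, 1 without a filter, 1 by DESeq2 and 13 with the replicate block. For 8AA minus 8CA in KG-1a at 24 h (14) there were 9 with upper-quartile scaling. For the line difference with 8AA at 8 h (3) there were 5 with library size only, 6 without a filter and 6 with at least 10 counts, and at 24 h (11), 7 without a filter. For the time difference of 8AA in MV4-11 (6) there were 16 with the replicate block. For untreated cells at 24 h minus 8 h there were 22 without a filter and 23 with the block in MV4-11 (13), and 16 without a filter, 16 in the fit of all 24 libraries and 13 with the block in KG-1a (8). Crossing the pairing for 8AA at 24 h in KG-1a, tried after seeing the data, left 33 calls with the block. The log2 ratio of PSMB9 to PSMB6 differed by -1.87 at 8 h alone and -1.94 at 24 h alone, and that of PSMB10 to PSMB7 by 1.98 and 2.06, with no smaller exact permutation p possible than 0.333.

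Leaving out 1 library at a time gave 1 to 3 calls with 8CA at 8 h in MV4-11, 11 to 18 with 8AA at 8 h in MV4-11 and 4 to 7 with 8AA at 8 h in KG-1a. For 8AA minus 8CA it gave 0 to 1 and 4 to 11 in MV4-11 at 8 h and 24 h, and 4 to 5 and 8 to 20 in KG-1a. It gave 3 to 6 and 7 to 16 for the line differences with 8CA and 8AA at 24 h, 19 to 28 and 2 to 9 for the time differences with 8CA and 8AA in MV4-11, and 1 to 5 and 0 to 3 for untreated 24 h minus 8 h in MV4-11 and KG-1a. The PSMB8 to PSMB5 difference ran from 0.20 to 0.34, the highest without KG-1a untreated 24 h replicate A. The 2 libraries per group limit the precision: standard errors at 24 h reached 0.234 log2 units, for PSMA6.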
